A study of Mus musculus with 6 samples.

Results

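The 6 adrenergic receptor genes Adra1a, Adra1b, Adra1d, Adra2a, Adra2c and Adrb1 were read by gene symbol from the 16060 rows of the hippocampal expression table, and all 6 were among the 13321 genes tested. Adult male C57BL/6 mice of the MA group had received methamphetamine (MA) rising weekly from 5 to 10 to 15 mg/kg over 3 weeks, and mice of the Control group had received saline by the same intraperitoneal route. The hippocampus was taken after behavioral tests on day 22 and gave 3 libraries per group, which the sources used here do not state to be 1 per mouse. Both groups were thus injected and tested alike apart from MA, and no mouse carried a transgene or deletion. Values were taken as log2(RPKM + 1), where RPKM is the read count scaled to gene length and library size. A difference is the mean log2 level of MA minus that of Control, so a positive one is higher in MA. Direction rests on the deposited column names. Arc, Egr1, Fos and Nr4a1, immediate early genes that amphetamines are known to induce acutely, were lower in every library labelled MA than in every Control library (log2 differences of -1.80, -1.46, -1.61 and -1.45). The sources used here do not give these 4 genes the same direction, so the column names may be exchanged, and every direction given below would then turn.

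Adrenergic receptors are the G-protein-coupled receptors through which noradrenaline and adrenaline act. In the hippocampus the noradrenaline is released by axons of the locus coeruleus in the brainstem, and amphetamines raise its extracellular level by acting on monoamine transporters. The alpha1 receptors (Adra1a, Adra1b, Adra1d) couple to Gq and raise intracellular calcium, the alpha2 receptors (Adra2a, Adra2c) couple to Gi/o and also serve as autoreceptors on noradrenergic axons, and the beta receptors (Adrb1 here) couple to Gs and raise cyclic AMP.

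None of the 6 receptor genes differed between the groups after adjustment over all tested genes (limma, adjusted p under 0.05), a threshold that 0.263% of all tested genes passed. Adra1b had an unadjusted p under 0.05 and was higher in the libraries labelled MA, which makes 1 of 6 receptors where 10.4% of all tested genes reached an unadjusted p under 0.05 in either direction and 4.99% did so with the higher level in MA. No receptor reached it with the lower level in MA, as 5.46% of all tested genes did. The groups overlapped for every receptor, so 0 of 6 had groups apart, against 17.5% of all tested genes (7.32% higher and 10.2% lower in MA). The median difference was 0.11 over the 6 receptors, with 5 higher and 1 lower in MA, and -0.01 over all tested genes. MA replicate 3 stood apart from the other libraries, with the lowest mean correlation with its own group (0.978 across tested genes, against 0.984 and 0.985 for MA replicates 1 and 2 and between 0.991 and 0.993 for Control). It also had 0 genes at a value of 0 and a lowest value of 0.000206, where each other library had between 259 and 437 genes at 0. The cause was not tested. Choroid plexus markers separated the groups in the same tissue pieces: all 6 were higher in every library labelled MA, and their summed RPKM, nearly all of it Ttr, was 65.5 to 420 in Control and 1774 to 5075 in MA, highest in MA replicate 3. All 6 had an unadjusted limma p under 0.05 and 3 passed the adjusted threshold, as did the 4 immediate early genes named above. The 6 markers of hippocampal excitatory neurons were all detected, with a summed RPKM of 734 to 829 in Control and 722.5 to 859 in MA. Of these 6, 5 were lower in MA, none past the adjusted threshold. Neurod6 and Wfs1 had log2 differences of -0.43 and -0.30, with unadjusted limma p-values of 0.00841 and 0.0270, and their groups did not overlap. Endothelial markers were also shifted, with a summed RPKM of 59.6 to 65.1 in Control and 70.5 to 98.1 in MA, all 6 differences positive, 2 with an unadjusted limma p under 0.05 and none past the adjusted threshold. None of the 30 tested markers of inhibitory neurons, astrocytes, oligodendrocytes, microglia and mural cells passed the adjusted threshold, 1 astrocyte marker had an unadjusted limma p under 0.05 with the lower level in MA, and the summed levels of each type overlapped between the groups.

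The receptors held nearly the same order of levels in all 6 libraries. Adra1d was the most abundant in every library, at 49.6% to 59.1% of the summed RPKM of the 6 genes. Adra2c followed with 15.1% to 22.6%, Adrb1 with 11.6% to 14.3%, Adra2a with 6.21% to 9.46%, Adra1b with 2.35% to 6.33% and Adra1a with 0.807% to 1.70%. Only Adra2a and Adra1b were neighbours whose ranges over the libraries met (1.76 to 2.40 and 0.95 to 2.05 as log2 levels), and MA replicate 2 was the only library in which Adra1b exceeded Adra2a. By mean level, Adra1d was above 74.1% of all tested genes and Adra1a above 1.17%. The summed RPKM of the 6 receptors was 38.5 to 40.0 in Control and 36.8 to 49.6 in MA, so the MA libraries lay on both sides of the Control libraries. The order between genes depends on the gene lengths used to make the RPKM values, which are not given in the sources used here.

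**Figure D1:**
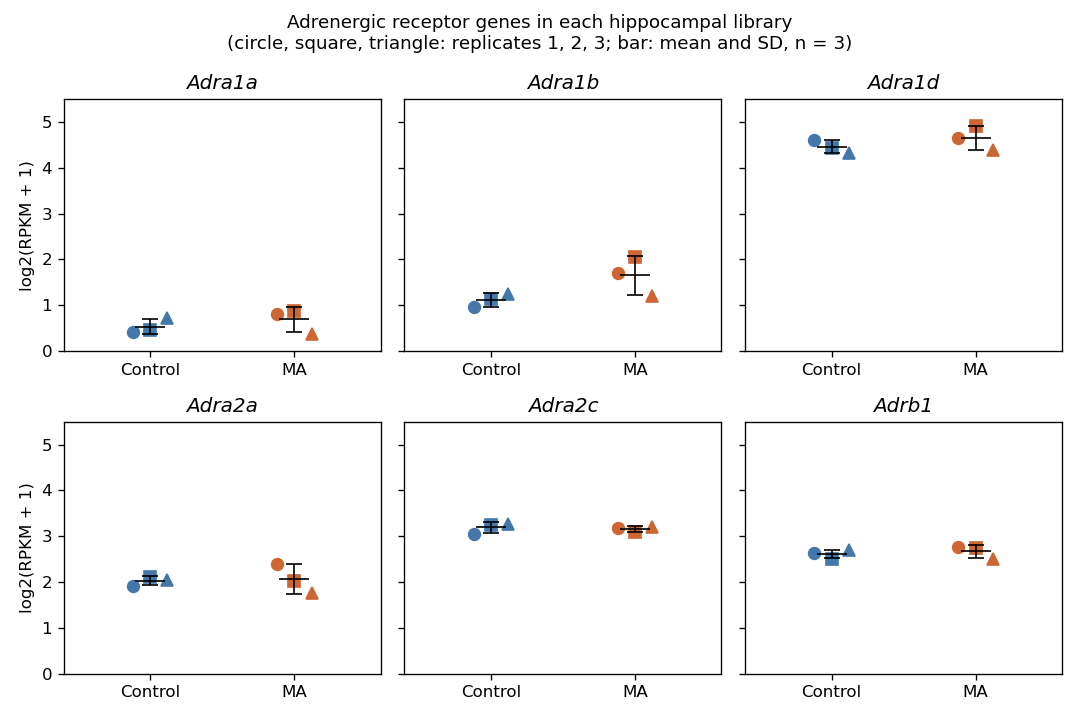
Level of each receptor gene as log2(RPKM + 1) (y axis) in the 3 Control and 3 MA libraries (x axis), with replicates 1, 2 and 3 as circle, square and triangle and the mean and SD as bars. Adra1d sits highest at 4.33 to 4.92 and Adra1a lowest at 0.37 to 0.88. Adra1b replicates 1 and 2 of MA lie above all Control libraries and MA replicate 3 does not.

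Adra1b (ENSMUSG00000050541) lies on the minus strand of chromosome 11, from 43774606 to 43901210 in GRCm38, and its annotated transcripts cover 5 separate exonic stretches with no exon of another annotated gene on them. RefSeq gives this receptor 2 transcription starts far apart, which a value per gene cannot tell apart. The 250 bases before each start are shown because Adra1b had the widest difference of the family, read 5′ to 3′ along the gene's strand from GRCm38.p6, with a GC box (GGGCGG, or CCGCCC on the other strand) in capitals.
Adra1b distal start, chr11:43901238-43901487: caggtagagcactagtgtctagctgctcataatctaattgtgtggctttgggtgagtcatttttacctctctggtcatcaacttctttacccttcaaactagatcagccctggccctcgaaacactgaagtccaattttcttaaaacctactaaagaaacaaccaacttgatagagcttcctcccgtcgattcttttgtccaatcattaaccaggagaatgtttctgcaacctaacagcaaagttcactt
Adra1b proximal start, chr11:43836490-43836739: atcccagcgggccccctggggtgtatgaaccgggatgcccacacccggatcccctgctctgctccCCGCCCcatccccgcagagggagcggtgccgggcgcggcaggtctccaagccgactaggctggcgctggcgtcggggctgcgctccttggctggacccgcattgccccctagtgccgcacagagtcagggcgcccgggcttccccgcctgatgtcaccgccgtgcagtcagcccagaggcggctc
The distal sequence has 41.6% GC and 3 CpG pairs, and the proximal one 72.8% GC and 22 CpG pairs, with medians of 52.4% and 6 over 32851 promoter windows of the same length. The proximal window holds 1 GC box, a motif found in 32.7% of all windows, and the distal window holds 0. Neither holds TATAAA or the cyclic AMP response element TGACGTCA on either strand, which 12.4% and 1.55% of all windows hold. Of the other receptors, 3 matched an entry in the same RefSeq set. Adra2a and Adrb1 had GC-rich windows (67.6% and 74.0% GC) with 1 GC box each, Adra2a had 1 TATAAA as well, and Adra2c had 53.6% GC and none of the 3 motifs. These are matches of letters only.

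Adra1b, an alpha1 receptor known for its strong expression in the thalamus, had log2 levels of 0.95, 1.14 and 1.25 in Control replicates 1, 2 and 3 and of 1.70, 2.05 and 1.21 in MA replicates 1, 2 and 3. MA replicates 1 and 2 were above every Control library, whereas MA replicate 3 lay between Control replicates 2 and 3. The RPKM was 1.18 ± 0.22 in Control and 2.23 ± 0.92 in MA (SD, n = 3 each), a ratio of 1.90. The log2 difference was 0.54 (standard error 0.21, 95% interval 0.04 to 1.03), with an unadjusted p of 0.0378 and an adjusted p of 0.447 from limma, and an exact two-sided permutation test gave p = 0.2, where 0.1 is the smallest p that 3 libraries against 3 allow. Over all tested genes, 1.79% were at least as much higher in MA. Without MA replicate 3 the difference was 0.76 with a limma adjusted p of 0.0640, in a fit that called 1.93% of all tested genes, and without MA replicate 2 it was 0.34 with a limma adjusted p of 0.701. With limma's sample quality weights, which gave MA replicate 3 a weight of 0.194 and MA replicate 2 a weight of 2.45, it was 0.79 with an adjusted p of 0.0345, in a fit that called 4.4% of all tested genes. In that fit 3 of 6 receptors, Adra1a, Adra1b and Adra1d, had an unadjusted p under 0.05, where 26.3% of all tested genes had one. Over 14 alternative settings the limma adjusted p of Adra1b ran from 0.0345 to 0.876. The offset of 1 compresses low levels, and a pseudocount of 0.01 in its place gave a difference of 0.85 for Adra1b and 0.40 for Adra1a.

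Markers of the thalamus, which lies under the hippocampus, were highest in the same 2 libraries as Adra1b. The markers were named after their values were seen, and 66 tested genes had a Pearson's r of 0.95 or more with Adra1b. The likeness is therefore a description and not a test. All 9 thalamic markers on the list passed the filter on low values, none was at 0, and their summed RPKM was 34.6, 29.5 and 41.1 in Control replicates 1, 2 and 3 and 84.0, 104 and 33.5 in MA replicates 1, 2 and 3. The 2 libraries with raised Adra1b were thus the 2 with raised thalamic markers, and in MA replicate 3 both were within the Control range. A rise in MA replicates 1 and 2 alone was not particular to the thalamus. The astrocyte markers summed to 473 to 501 in Control and to 557, 590 and 369 in MA replicates 1, 2 and 3. Even so, 5 of the 6 astrocyte differences were negative, and Aqp4 was lower in every MA library than in every Control library. For the receptor scaffold genes described below, the sums were 684 to 706 and 749, 827 and 668. Those of the Gs signalling genes were 1260 to 1390 and 1580, 1500 and 1100, and those of the Gi/o genes 384 to 406 and 446, 422 and 323. In each of these lists MA replicate 3 was below the Control range, unlike for Adra1b and the thalamic markers. The sums of inhibitory neuron, oligodendrocyte and microglia markers did not show the rise. All 9 thalamic differences were positive, with a median of 0.76, and none passed the adjusted threshold. Of the 9, 4 had an unadjusted limma p under 0.05, where 4.99% of all tested genes had one with the higher level in MA. Tnnt1, a troponin gene of thalamic neurons, had log2 levels of 2.17, 1.99 and 2.41 in Control and 4.12, 4.69 and 2.20 in MA. Tcf7l2, a transcription factor of thalamic neurons, had 1.66, 1.15 and 2.43 in Control and 3.21, 3.08 and 1.68 in MA. Among the choroid plexus markers the order of the MA libraries varied. Ttr, which carries most of their sum, was highest in MA replicate 3, with an RPKM of 1744, 2254 and 5033 in MA replicates 1, 2 and 3. Folr1 was highest in MA replicate 2 and lowest of the 3 in MA replicate 3 (RPKM of 8.70, 16.9 and 6.68), and Clic6 and Kl were also highest in MA replicate 2. All 6 of these markers were above the Control libraries in MA replicate 3, where Adra1b was not. The part of thalamic or choroid plexus RNA in the Adra1b difference was not tested. In pieces of whole tissue, more cells of a type and more RNA per cell cannot be told apart.

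**Figure D2:**
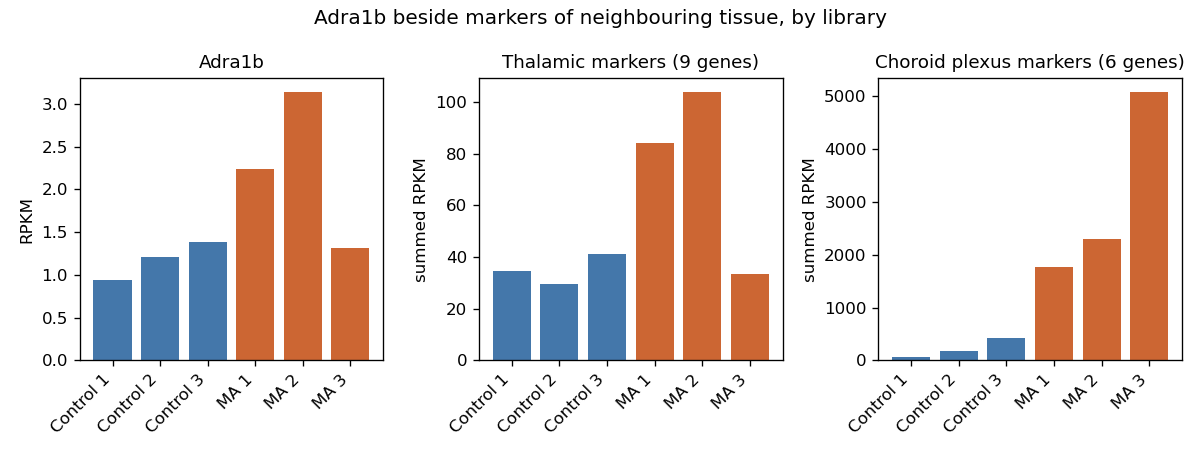
RPKM of Adra1b (left) beside the summed RPKM of 9 thalamic markers (middle) and 6 choroid plexus markers (right) in each library (x axis), with Control in blue and MA in orange. Adra1b and the thalamic sum are both highest in MA replicates 1 and 2, and the choroid plexus sum is highest in MA replicate 3, at 5075.

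Adra1d (ENSMUSG00000027335), the alpha1 subtype that dominated these libraries, lies on the minus strand of chromosome 2 from 131545850 to 131562283. Its log2 levels were 4.61, 4.44 and 4.33 in Control replicates 1, 2 and 3 and 4.65, 4.92 and 4.39 in the same-numbered MA libraries. MA replicates 1 and 2 were again the highest, but MA replicate 3 lay below 2 Control libraries. The difference was 0.19 (standard error 0.15, 95% interval -0.15 to 0.54, adjusted p = 0.713 from limma), smaller than the SD of 0.27 among the MA libraries. The RPKM was 21.1 ± 2.16 in Control and 24.5 ± 4.73 in MA (SD, n = 3 each). Without MA replicate 3 the difference was 0.33 with a limma adjusted p of 0.165, and Adra1d and Adra1b were then the 2 receptors with an unadjusted p under 0.05, in a fit where 23.3% of all tested genes had one. Without MA replicate 2 the difference was 0.06 (limma adjusted p = 0.943), and without Control replicate 3 it was 0.13 (limma adjusted p = 0.905). An annotated antisense gene, Gm14285, shares 147 exonic bases with Adra1d, and the sources used here do not say whether counting used strand.

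Adra1a (ENSMUSG00000045875, chromosome 14, plus strand, 66635251 to 66771168) was close to the limit of the filter. Its log2 levels were 0.42, 0.45 and 0.73 in Control replicates 1, 2 and 3, and 0.82, 0.88 and 0.37 in MA replicates 1, 2 and 3. As with the other alpha1 genes, MA replicates 1 and 2 were the highest libraries, while MA replicate 3 was the lowest of all 6. The difference was 0.16 (standard error 0.17, 95% interval -0.24 to 0.55, adjusted p = 0.805 from limma). It ran from 0.06 without MA replicate 2 to 0.32 without MA replicate 3 (limma adjusted p = 0.961 and 0.233). The RPKM was under 1 in every library, from 0.297 to 0.838, and the depth behind these values is unknown.

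The alpha2 receptors showed no detectable difference. Adra2c (ENSMUSG00000045318), a single-exon gene on the plus strand of chromosome 5 from 35278319 to 35281763, had log2 levels of 3.06, 3.25 and 3.28 in Control and 3.19, 3.08 and 3.20 in MA, with all 3 MA libraries inside the Control range. Its difference was -0.04 (standard error 0.10, 95% interval -0.27 to 0.20, adjusted p = 0.934 from limma), the narrowest interval of the 6 receptors. Adra2a (ENSMUSG00000033717), also of 1 exon, lies on chromosome 19 from 54044151 to 54048982 on the plus strand. Its log2 levels were 1.92, 2.11 and 2.05 in Control replicates 1, 2 and 3 and 2.40, 2.03 and 1.76 in MA replicates 1, 2 and 3. The MA libraries thus lay above, inside and below the Control range, with an SD of 0.32 against 0.10. The difference of 0.04 (standard error 0.17, 95% interval -0.36 to 0.43, adjusted p = 0.961 from limma) turned negative without Control replicate 1 (-0.02) or MA replicate 1 (-0.13).

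Adrb1 (ENSMUSG00000035283), a beta receptor that couples to Gs, lies on the plus strand of chromosome 19 from 56722199 to 56733113. Its log2 levels were 2.63, 2.51 and 2.70 in Control and 2.76, 2.75 and 2.51 in MA. MA replicates 1 and 2 were just above the Control libraries and MA replicate 3 level with the lowest of them. The difference was 0.06 (standard error 0.11, 95% interval -0.20 to 0.32, adjusted p = 0.905 from limma). On the log2 scale the 95% intervals of Adra2c and Adrb1 thus leave room for changes of up to 0.27 and 0.32 in size, and those of Adra1a, Adra1d and Adra2a for changes of up to 0.55, 0.54 and 0.43.

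**Figure D3:**
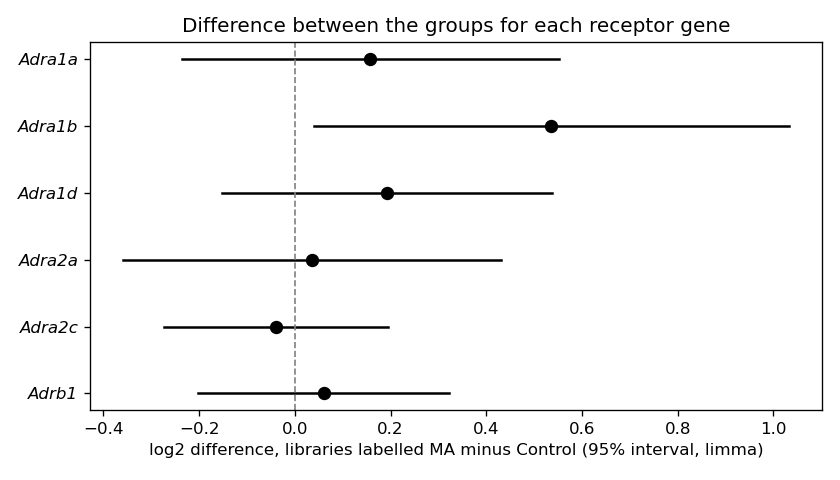
Log2 difference between the libraries labelled MA and Control (x axis, point) with its 95% interval from limma (line) for each receptor gene (y axis). The interval of Adra1b runs from 0.04 to 1.03, and the other 5 intervals include 0.

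Adra2b and Adrb3, receptor genes of the same family, were at low levels and did not pass the filter. Adra2b was at 0.01 to 0.07 in Control and 0.03 to 0.11 in MA. Adrb3, best known as the beta receptor of fat tissue, was at 0.27, 0.14 and 0.20 in Control and at 0.48, 0.36 and 0.45 in MA, and every MA library was above every Control library (exact permutation test, two-sided, p = 0.1, the smallest possible). In the fit with no filter its difference was 0.22 (standard error 0.06), with a limma adjusted p of 0.316, where 0.0187% of all rows passed the threshold. The RPKM of Adrb3 stayed under 0.4 in every library, and 839 of its annotated exonic bases are shared with an antisense gene, Gm45470.

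The genes that make, store and clear noradrenaline are a separate readout, because the noradrenergic cell bodies lie outside the hippocampus. Of 12 genes on the list, 11 had a row, 7 were tested, none passed the adjusted threshold and 2 had an unadjusted p under 0.05 (limma), both higher in MA. Th and Dbh, enzymes of noradrenaline synthesis, were under the filter, Th at log2 levels of 0.09 to 0.64 over the 6 libraries. Dbh was at 0.35, 0.41 and 0.43 in Control and at 0.27, 0.31 and 0.18 in MA, with every MA library below every Control library (exact permutation test, two-sided, p = 0.1, the smallest possible). Maob, a mitochondrial monoamine oxidase found mostly in astrocytes, had log2 levels of 3.05, 2.92 and 3.11 in Control and 3.52, 3.34 and 3.25 in MA. Its groups did not overlap, and the difference was 0.34 (standard error 0.11, adjusted p = 0.350 from limma). Ddc, which makes dopamine from L-DOPA, was at 2.54, 2.13 and 2.10 in Control and at 2.74, 2.55 and 2.76 in MA, a difference of 0.42 (standard error 0.14, adjusted p = 0.379 from limma) with all MA libraries above all Control libraries. Slc18a2, the vesicular monoamine transporter, was at 1.37 to 1.49 in Control and 1.16 to 1.41 in MA, with a difference of -0.17 and a limma adjusted p of 0.658. The median difference of the list was 0.05.

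Downstream of the receptors, none of the 51 tested signalling genes passed the adjusted threshold, and 4 had an unadjusted p under 0.05 (limma), 3 of them higher and 1 lower in MA. Over all tested genes, 10.4% had an unadjusted p under 0.05, 4.99% higher and 5.46% lower in MA. All 4 belonged to the Gs arm of the beta receptors or to the receptor kinases. In the Gs arm, with 16 tested genes and a median difference of 0.05, Adcy6 and Adcy5, adenylyl cyclases inhibited by calcium, were higher in MA, whereas Adcy2, a cyclase stimulated by G-protein beta-gamma subunits, was lower. Adcy6 had log2 levels of 2.78, 2.75 and 2.82 in Control and 3.20, 3.21 and 3.06 in MA, with no overlap and a difference of 0.37 (standard error 0.09, adjusted p = 0.238 from limma). Adcy5 had levels of 3.06, 3.51 and 3.47 in Control and 4.14, 4.12 and 3.53 in MA. Its difference was 0.59 (standard error 0.20, adjusted p = 0.370 from limma), and MA replicate 3 was again nearest to Control. For Adcy2 the levels were 4.75, 4.79 and 4.83 in Control and 4.57, 4.64 and 4.37 in MA, a difference of -0.26 (standard error 0.10, adjusted p = 0.413 from limma). With sample quality weights Adcy5 and Adcy6 passed the adjusted threshold (limma adjusted p = 0.0345 and 0.0275). They were the 2 of all 58 tested genes on these lists that did, where 4.4% of all tested genes did. In that fit 18 of the 58 had an unadjusted limma p under 0.05, against 26.3% of all tested genes. Without MA replicate 3 it was 21 of the 58, against 23.3%, and none passed the adjusted threshold.

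Among the receptor kinases and arrestins, which switch off activated receptors, 7 genes were tested and the median difference was -0.02. Adrbk2, the kinase also called GRK3, was at 3.63, 3.96 and 3.91 in Control and at 4.27, 4.29 and 3.99 in MA, a difference of 0.35 (standard error 0.13, adjusted p = 0.413 from limma). Its close relative Adrbk1 (GRK2) differed by -0.02. Arrb1, an arrestin, differed by 0.18 and the kinase Grk4 by -0.30 (adjusted p = 0.735 and 0.625, limma). The 13 tested genes of the Gq arm had a median difference of -0.01 and no unadjusted p under 0.05. Prkcb, a calcium-activated protein kinase C, came nearest at -0.24 (adjusted p = 0.511 from limma). Plcb4 and Plcb3, phospholipases that Gq activates, differed by 0.23 and 0.13 (limma adjusted p = 0.753 and 0.707). Of the Gi/o arm, 8 genes were tested, with a median of -0.04. Its G-protein alpha subunit genes Gnai3, Gnaz and Gnai2 differed by -0.16, -0.11 and -0.06 (limma adjusted p = 0.652, 0.753 and 0.891). The 7 receptor scaffolds had a median of -0.005. Ppp1r9b (spinophilin, which binds alpha2 receptors) differed by 0.19, Gipc1 by -0.03 and Magi3 by -0.04 (adjusted p = 0.592, 0.937 and 0.947, limma).

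**Figure D4:**
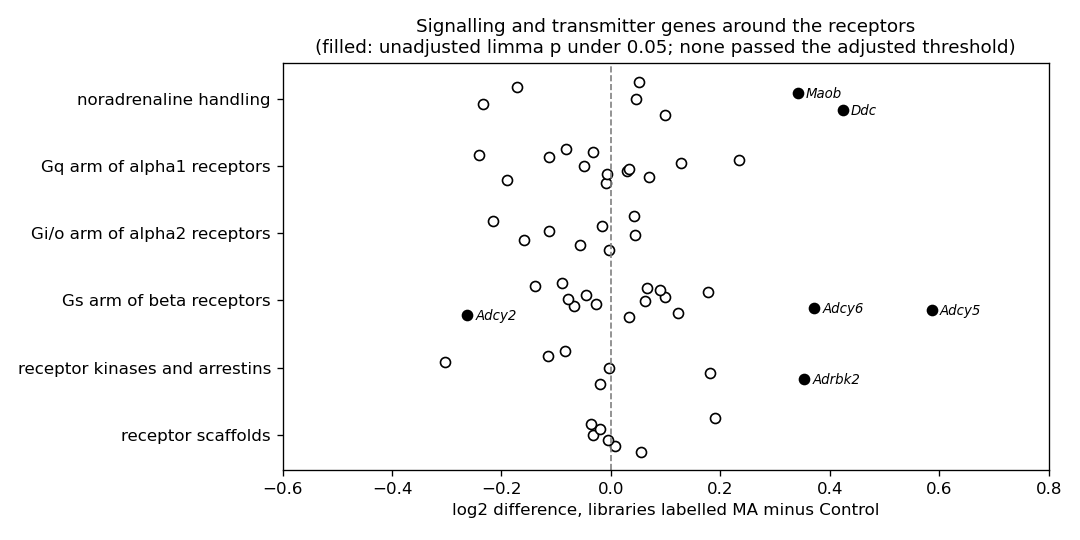
Log2 difference between the libraries labelled MA and Control (x axis) for the 58 tested genes of 6 lists around the receptors (y axis), 1 point a gene. Filled points have an unadjusted limma p under 0.05, which are 5 higher genes (Maob, Ddc, Adcy6, Adcy5 and Adrbk2) and 1 lower gene (Adcy2), and no gene passed the adjusted threshold.

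The pattern of each receptor over the 6 libraries was compared with those of all tested genes by Pearson's r, as a description, since 6 points give many high values. For Adra1b the 2 most alike genes were Siah3 and Phospho1 (r = 0.996 and 0.989), both high in MA replicates 1 and 2. For Adra1d they were Amer3 and Dph1 (r = 0.992 and 0.987), and for Adra1a the lysosomal genes Acp2 and Psap (r = 0.992 and 0.991). Those nearest to Adrb1 were Lgi1 and Rasgrf2 (r = 0.997 and 0.993). Adra2a was most like Appbp2os and Oxr1 (r = 0.986 and 0.979), and Adra2c most like Cckbr and Gucy2g (r = 0.985 and 0.974). Between 20 and 122 tested genes reached an r of 0.95 with any 1 receptor. The 6 receptors named 12 different genes, but several receptors were alike among themselves. Their r was highest for Adra1a with Adrb1 (0.918) and with Adra1b (0.862), and lowest for Adra1d with Adra2c (-0.777).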

How the data were processed

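The authors deposited 1 table of 16060 genes by 6 libraries, named as RPKM. Per the paper's methods, reads were aligned with Hisat2, counted with featureCounts and scaled to FPKM; the labels also list Bowtie 0.12.2, mm8 and mm9, with no role given. The deposited values were taken as log2(RPKM + 1). With exonic lengths of GENCODE M21, log2 implied 1.77 to 1.88 times the read total that RPKM is scaled to, the natural log 18.2 to 19.6 times. The log2 scale was thus the nearer one, though it did not match that total. The offset of 1 was not tested, and every RPKM, ratio and share given here rests on it. All libraries share a highest value of 12.30, so a normalization not described in the sources used here had been applied. Read totals are unknown, and the 3 samples per group may carry technical as well as biological spread.

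Tested genes had 0.5 or more, back-transformed, in 3 or more libraries. The test was limma 3.58.1 (R 4.3.3; lmFit, eBayes with trend; Benjamini-Hochberg over all tested genes), checked on simulated tables. Alternatives were 2 other filters, pseudocounts of 0.1 and 0.01, median centring, quantile normalization, no trend, quality weights, a replicate block and leaving out each library. Coordinates come from GRCm38 by Ensembl identifier, for location only, as the authors' build is not settled. Promoters are RefSeq's. Members and gene lists were chosen with earlier results of these data known. Named genes were the receptors (1 item of the rule is not reported here), the 3 genes of each list with the smallest p and any called gene, and the 2 genes most alike to each receptor. Markers and the 4 immediate early genes were named after their values were seen.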

Additional observations from a re-analysis of the deposited data

How the results depend on the processing

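No receptor passed the adjusted threshold in the reported fit or in any alternative other than sample quality weights, where 1 receptor (Adra1b, log2 difference 0.79) and 2 genes of the surrounding lists passed. Over all tested genes, the 35 calls became 3 with no filter, 20 with a minimum mean of 5, 586 with quality weights, 15 with the replicate block and 0 to 257 when 1 library was left out. A minimum mean of 5 removed Adra1a, Adra1b and Adra2a, which then had no value. Leaving out 1 library moved the log2 difference of Adra2a from -0.13 to 0.19 and that of Adra2c from -0.11 to 0.0016, with a change of sign in each; the cause was not tested. Adra1b stayed positive, between 0.34 and 0.76, as did Adra1a (0.06 to 0.32), Adra1d (0.06 to 0.33) and Adrb1 (0.0083 to 0.14). Same-numbered libraries did not deviate together (r = -0.197, -0.242 and -0.337 across genes for numbers 1, 2 and 3), and the replicate block gave Adra1b a limma adjusted p of 0.785 at the same difference of 0.54, with no call changed among the receptors. Depth is unknown, so counting error at the low levels of Adra1a and Adra1b cannot be given.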
